A study of Mus musculus with 12 samples.

Results

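Malat1, Neat1, Pvt1 and H19 are long non-coding RNAs, transcripts with no established protein product. They were chosen by name, together with Meg3, Rian, Mirg and Kcnq1ot1, for a check of what polysomal fractions hold. The 8 are RNAs known mainly from the nucleus or from imprinted loci. Rows were found for 4 of the 8 named RNAs, among 13768 genes in all, and the other 4 are not analysed here. The 4 with rows are in the tables of both genotypes and passed the filter on low values in every comparison.

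The cells were C2C12, an established mouse myoblast line that can fuse into myotubes. The 4 groups were polysomal RNA of Ddx27-/- cells, total RNA of Ddx27-/- cells, polysomal RNA of wild-type cells and total RNA of wild-type cells. Ddx27 encodes a nucleolar RNA helicase with a part in ribosomal RNA processing. The labels list 3 samples in each group and name no drug, time, clone, poly(A) selection or removal of ribosomal RNA. Values exist for 11 libraries, since the knockout total group has 2 columns. Nothing says that samples of 1 group were grown apart, so the p-values measure only the spread between these samples, which may be technical.

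Malat1 is an abundant RNA of nuclear speckles whose end is cut by RNase P and protected by a folded A-rich element in place of a poly(A) tail. Neat1 is the architectural RNA of paraspeckles, nuclear bodies built on its long isoform, and its short isoform shares the same start. Pvt1 is a neighbour of the Myc gene, known for its gain together with Myc in tumours. H19 is transcribed from the maternal allele of an imprinted domain, shares enhancers with Igf2, rises when myoblasts differentiate, is found largely in the cytoplasm, and is the host of miR-675. Meg3, Rian and Mirg come from the imprinted Dlk1-Dio3 domain and Kcnq1ot1 from the Kcnq1 domain. None of the 103 genes annotated between Dlk1 and Dio3 (GRCm38.p6, chr12:109452485-110281097) was matched by symbol to a row.

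In RefSeq GRCm38.p6, the mm10 build of the submitters' notes, Malat1 (ENSMUSG00000092341) lies at chr19:5795690-5802672 and Neat1 (ENSMUSG00000092274) at chr19:5824708-5845480, 22036 bases apart. Pvt1 (ENSMUSG00000097039) spans chr15:62037986-62260215 and overlaps the pseudogene Macroh2a3, which lies within its span; whether an exon is shared was not tested, and the strand used in counting is not given in the sources used here. H19 (ENSMUSG00000000031) lies at chr7:142575530-142578146 and contains Mir675. The deposited length of Neat1, 23411 bases, is longer than that of 99.8% of genes. The deposited lengths are 8811 bases for Malat1, 7138 for Pvt1 and 2893 for H19, and H19 is longer than only 40.8% of genes.

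The small RNA products of H19 are shown because they are cut from the same transcript whose reads are counted below; miR-675 itself was not measured. Both arms and the hairpin are from RefSeq GRCm38.p6, on the minus strand, written 5′ to 3′. Capitals mark the seed, bases 2 to 8, in the mature RNAs, and the 2 mature arms in the hairpin. The arms lie at chr7:142577112-142577133 for miR-675-5p and chr7:142577078-142577099 for miR-675-3p, inside the hairpin at chr7:142577064-142577147.
mmu-miR-675-5p: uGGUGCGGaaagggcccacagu
mmu-miR-675-3p: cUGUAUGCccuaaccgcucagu
Mir675 hairpin: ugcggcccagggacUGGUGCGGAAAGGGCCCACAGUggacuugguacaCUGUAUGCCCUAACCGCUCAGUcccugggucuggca
The 2 arms have different seeds.

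Values are normalised read counts, which the authors scaled separately in each genotype's table. Libraries held 13683674 to 27347878 reads, and the 4 RNAs had at least 433 reads in every library, so counting error was small beside the spread between libraries. Ddx27 had 31.3 to 52.6 in knockout polysomal and 39.7 to 45.0 in knockout total libraries, against 139 to 215 in wild-type polysomal and 139 to 150 in wild-type total libraries. It was lower in the knockout on a common scale, by 2.08 ± 0.22 (log2, SE, adjusted p = 0.000194) in polysomal and 1.63 ± 0.24 (adjusted p = 0.00187) in total RNA by limma. The polysomal libraries differed in ribosomal-RNA-like gene models, which took 23.2%, 32.7% and 0.385% of reads in knockout polysomal replicates 1, 2 and 3, 5.93%, 14.6% and 0.676% in wild-type polysomal replicates 1, 2 and 3, and at most 0.148% in total libraries. The myoblast factor Myod1 had 0 to 0.0861 in knockout polysomal and 0.363 to 1.13 in knockout total libraries, against 69.7 to 95.5 in wild-type polysomal and 137 to 177 in wild-type total libraries, so this defining marker of the labelled cell type was nearly absent from the knockout libraries. Of the 8 listed myoblast markers 7 had rows in the knockout table, and their summed level was 547 to 652 in knockout polysomal and 1183 to 1312 in knockout total libraries, against 962 to 1065 in wild-type polysomal and 3089 to 4180 in wild-type total libraries, where all 8 had rows. Single markers did not share one direction. On the common scale, 4 of the 7 were lower in knockout total RNA and 1, Myf5, was higher (0.98, adjusted p = 0.0367 by limma). Megf10 did not pass there (-0.02).

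In wild-type cells, Pvt1 was higher in polysomal than in total RNA while Neat1 and H19 were lower and Malat1 did not pass the test. The test was limma on log2(value + 1), with p-values adjusted over all genes tested and a threshold of 0.05, and log2 differences are polysomal minus total RNA on that scale. It called 22.7% of the 12380 genes tested, 8.89% as higher and 13.8% as lower, and among the 4 RNAs it called 1 as higher and 2 as lower. A further setting took out the ribosomal-RNA-like models and also scaled each library to the total of its remaining reads, in place of the authors' scale. It called 1300 genes higher and 1309 lower, against 1101 and 1705 in the test above. These changes were not tested apart, here and wherever these models are taken out below. The median log2 difference was -0.62 over the 4 RNAs and -0.02 over all genes.

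In knockout cells Pvt1 had the highest and Neat1 the lowest difference of the 4 RNAs, and none of the 4 passed the test. The test called 2.76% of the 12070 genes tested, 0.911% as higher and 1.85% as lower, and 2745 genes had an unadjusted p under 0.05. edgeR on the recovered reads called none of the 4 either, while DESeq2 called Pvt1. With the ribosomal-RNA-like models taken out and the scaling changed as for wild-type cells, 126 genes were higher and 100 lower. Without either change, 110 were higher and 223 lower. The median log2 difference was -0.26 over the 4 RNAs and 0.04 over all genes.

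**Figure D1:**
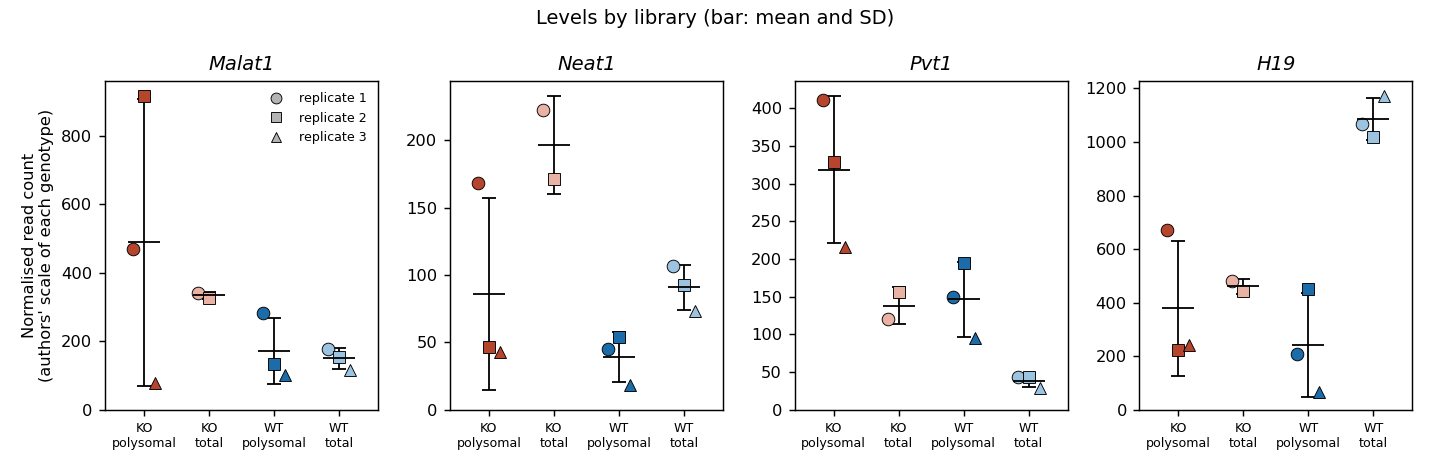
Normalised read counts of the 4 RNAs (linear axes, 1 panel each) in each library of the 4 groups; points are libraries, long bars are group means and error bars are SD. Pvt1 lies higher in polysomal than in total libraries of each genotype, Neat1 lies lower, and the Malat1 points of the 2 fractions overlap.

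Malat1, the speckle RNA, was read in every polysomal library, with a wide spread, and did not pass the test between fractions. In knockout cells it had 469.6, 916.6 and 77.9 in polysomal replicates 1, 2 and 3, against 340.4 and 326.2 in total replicates 1 and 2. In wild-type cells it had 281.3, 132.8 and 100.3 in polysomal replicates, against 178.0, 155.0 and 117.0 in total replicates. The groups overlapped in both genotypes, and in each genotype polysomal replicate 3 was the lowest of all libraries. The log2 difference was -0.04 ± 0.83 in knockout cells (SE, 95% interval -1.93 to 1.85, adjusted p = 0.981 by limma) and 0.07 ± 0.38 in wild-type cells (-0.81 to 0.95, adjusted p = 0.904), so the knockout interval leaves room for a large difference either way.

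The polysomal replicate 3 libraries were those with the smallest share of ribosomal-RNA-like reads. With only them as polysomal fraction, the log2 difference of Malat1 was -2.08 in knockout cells and -0.55 in wild-type cells. This choice was made after the data were seen and leaves 1 polysomal library per genotype, so its spread cannot be estimated, and values given for replicate 3 alone here and below carry no test. The part of the ribosomal-RNA-like reads in the Malat1 values was not tested.

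Neat1, the paraspeckle RNA, fell in wild-type polysomal RNA and did not pass in knockout cells. In knockout cells it had 168.2, 46.6 and 42.7 in polysomal replicates 1, 2 and 3, against 222.4 and 170.9 in total replicates. In wild-type cells it had 45.2, 54.1 and 18.5 in polysomal replicates, against 106.4, 92.6 and 73.3 in total replicates. Every polysomal library lay below every total library of its genotype, in the knockout by a small margin for replicate 1. Groups did not overlap in that direction for 18.3% of knockout genes and 27.7% of wild-type genes.

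The Neat1 log2 difference was -1.47 ± 0.53 in knockout cells (SE, 95% interval -2.67 to -0.27, adjusted p = 0.150 by limma) and -1.31 ± 0.39 in wild-type cells (-2.21 to -0.40, adjusted p = 0.049). The wild-type call was marginal. It was lost with edgeR (adjusted p = 0.0709), with a pseudocount of 0.1 (0.0524), with another scaling (0.0539), with the ribosomal-RNA-like models taken out (0.0523), without any 1 of the total libraries (0.124 to 0.166) and without polysomal replicate 1 (0.0783). With the trend on gene length removed the difference was -1.58 in knockout cells and -0.46 in wild-type cells (adjusted p = 0.578). The slope of the difference per doubling of gene length was -0.16, 0.17 and 0.11 (log2) in knockout polysomal replicates 1, 2 and 3 and -0.23, -0.53 and -0.14 in wild-type polysomal replicates, and its part in the Neat1 values was not tested. In knockout cells the call was gained without polysomal replicate 1 (-2.10, adjusted p = 0.000531). With replicate 3 alone the knockout value was -2.16.

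A ratio of 2 RNAs within a library does not depend on the scaling. Neat1 reads per Malat1 read were 0.358, 0.0509 and 0.549 in knockout polysomal replicates 1, 2 and 3, against 0.653 and 0.524 in knockout total replicates. They were 0.161, 0.408 and 0.184 in wild-type polysomal replicates, against 0.598, 0.598 and 0.626 in wild-type total replicates. All 3 wild-type polysomal ratios lay below all 3 wild-type total ratios (exact permutation test, two-sided, p = 0.1, the smallest that 3 against 3 allow), and the knockout groups overlapped. The wild-type total ratios were close to each other, the 2 knockout total ratios differed beyond counting error, and knockout polysomal replicate 2 was far below every other library.

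**Figure D2:**
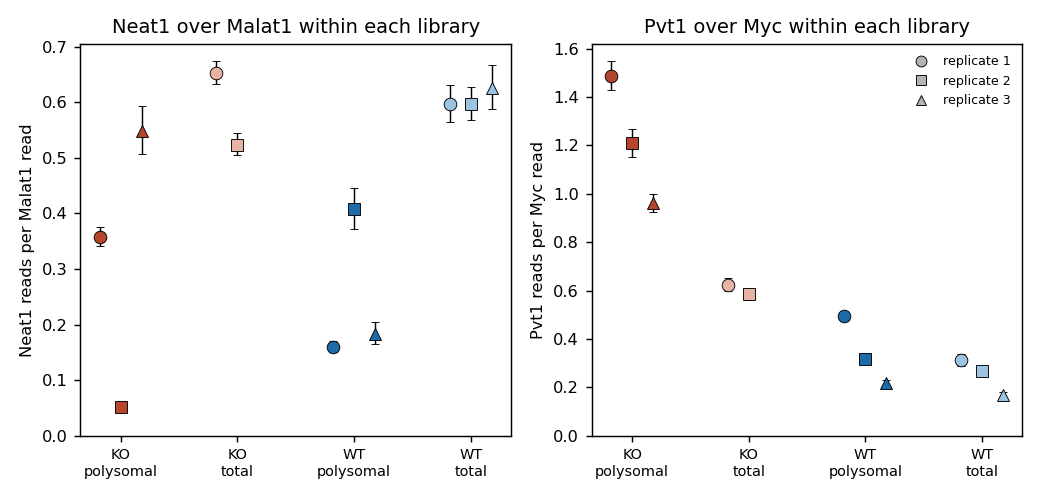
Reads of Neat1 per read of Malat1 (left) and of Pvt1 per read of Myc (right) in each library, with 95% intervals for counting error only; symbols give the replicate number. Neat1 over Malat1 varied more between polysomal than between total libraries, and Pvt1 over Myc was highest in the knockout polysomal libraries.

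Of the 16 listed proteins of paraspeckles 15 were tested, and in wild-type cells polysomal RNA had 1 that rose and 2 that fell, with a median of -0.15. Hnrnph3, a splicing regulator, rose by 1.01, while Smarca4, a chromatin remodelling ATPase, fell by 1.202 and Ewsr1, an RNA-binding protein, fell by 0.65. None of the 15 passed in knockout cells or between the genotypes.

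Pvt1 was the single one of the 4 that rose in wild-type polysomal RNA, and it did not pass in knockout cells. In knockout cells it had 411.2, 328.8 and 216.0 in polysomal replicates 1, 2 and 3, against 120.6 and 155.8 in total replicates. In wild-type cells it had 149.6, 194.4 and 94.99 in polysomal replicates, against 43.6, 43.3 and 28.6 in total replicates. No polysomal library overlapped a total library of its genotype, which held in the same direction for 22.3% of knockout and 23.2% of wild-type genes.

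The Pvt1 log2 difference was 1.16 ± 0.31 in knockout cells (SE, 95% interval 0.46 to 1.86, adjusted p = 0.0833 by limma) and 1.86 ± 0.30 in wild-type cells (1.16 to 2.57, adjusted p = 0.00731). It lay above the difference of 98.3% of genes in knockout cells and 99.5% in wild-type cells. The wild-type call was lost in the single case of leaving out total replicate 3 (1.67, adjusted p = 0.0524). In knockout cells DESeq2 made the call (1.17, adjusted p = 0.0122), as did limma without polysomal replicate 1 (0.95, adjusted p = 0.0378). With replicate 3 alone as polysomal library the knockout difference was 0.65.

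Myc, the coding neighbour that encodes a growth-promoting transcription factor, had a log2 difference of 0.18 ± 0.25 in knockout cells (adjusted p = 0.712 by limma) and rose by 1.46 ± 0.27 in wild-type cells (adjusted p = 0.0107). Pvt1 reads per Myc read were 1.49, 1.21 and 0.961 in knockout polysomal replicates, against 0.625 and 0.584 in knockout total replicates. They were 0.493, 0.316 and 0.219 in wild-type polysomal replicates, against 0.314, 0.269 and 0.168 in wild-type total replicates. The fractions did not overlap in the knockout and did in the wild type, and every knockout ratio lay above every wild-type ratio.

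H19 fell in wild-type polysomal RNA and did not pass in knockout cells. In knockout cells it had 669.7, 224.5 and 241.5 in polysomal replicates 1, 2 and 3, against 481.1 and 441.6 in total replicates, and the groups overlapped. In wild-type cells it had 207.0, 449.7 and 66.4 in polysomal replicates, against 1067.7, 1018.7 and 1171.3 in total replicates. Total libraries of the wild type were close to each other and far above the polysomal libraries, which spread widely.

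The H19 log2 difference was -0.48 ± 0.45 in knockout cells (SE, 95% interval -1.49 to 0.54, adjusted p = 0.564 by limma) and -2.55 ± 0.60 in wild-type cells (-3.96 to -1.15, adjusted p = 0.024). In wild-type cells 0.622% of genes lay lower. The wild-type call was lost without total replicate 1 (adjusted p = 0.088), 2 (0.0812) or 3 (0.108) and without polysomal replicate 1 (0.065). The difference was -4.01 with polysomal replicate 3 alone, -3.20 without replicate 2 and -1.83 without replicate 3. In knockout cells it became -0.98 (adjusted p = 0.0244) without polysomal replicate 1.

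Myotube markers moved with the fraction too. In knockout cells 4 of 6 tested were lower in the polysomal fraction (median -2.37), and in wild-type cells all 9 tested of the 10 listed (median -3.62). Their summed level was 17.03 to 27.4 in knockout polysomal and 178 to 205 in knockout total libraries, against 18.8 to 31.4 in wild-type polysomal and 336 to 840 in wild-type total libraries. In bulk RNA, fewer cells of a type, less RNA per cell and a smaller share of an RNA in polysomes cannot be told apart here. The part of each in the H19 values was not tested. Of 8 markers of other cell types, 2 had rows, Cd68 of macrophages and Dcn of fibroblasts, and their summed level was 4.15 to 5.12 in knockout polysomal and 13.5 to 13.6 in knockout total libraries, against 2.86 to 3.95 in wild-type polysomal and 15.8 to 29.4 in wild-type total libraries. Dcn, which is also an imprinted gene, fell in both genotypes, with a log2 difference of -2.19 in knockout and -3.20 in wild-type cells, and Cd68, at -0.26 in knockout and -0.16 in wild-type cells, did not pass.

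**Figure D3:**
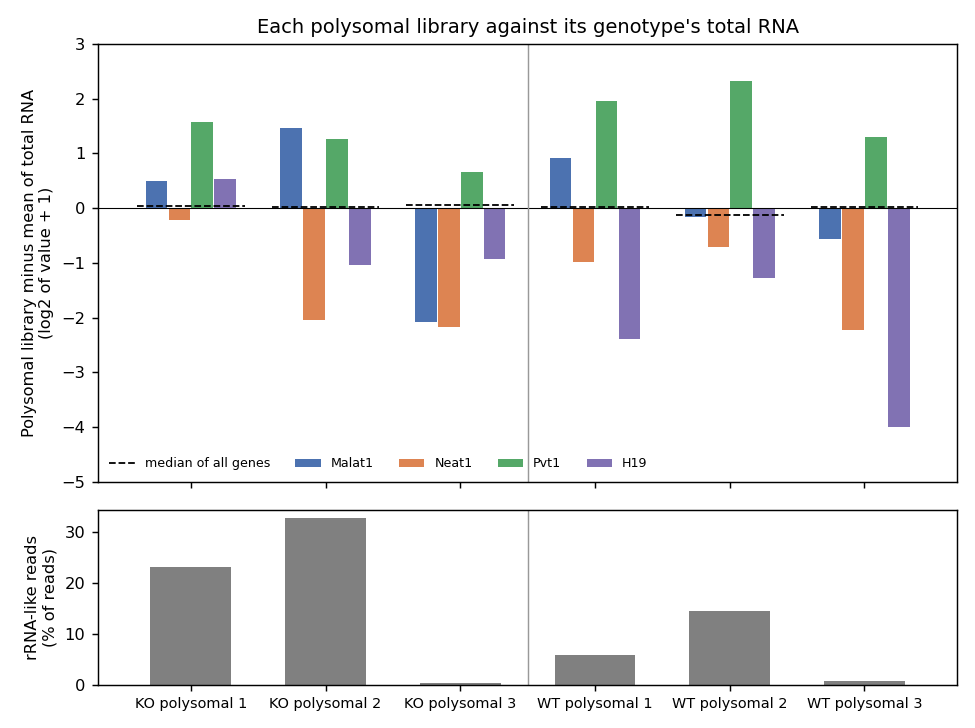
Log2 difference of each polysomal library from the mean of the total libraries of its genotype, for the 4 RNAs, with the median of all genes as a dashed line (top), and the share of reads on ribosomal-RNA-like models in the same library (bottom). Pvt1 lies above 0 and Neat1 below 0 in every polysomal library, H19 is below 0 in all but knockout replicate 1, and Malat1 takes both signs.

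Per polysomal library, Pvt1 stood above the mean of total RNA by 1.58, 1.26 and 0.65 (log2) in knockout replicates and by 1.96, 2.33 and 1.31 in wild-type replicates. H19 stood at 0.54, -1.03 and -0.93 in knockout replicates and at -2.38, -1.27 and -4.01 in wild-type replicates. Malat1 stood at 0.49, 1.46 and -2.08 in knockout replicates and at 0.92, -0.15 and -0.55 in wild-type replicates. Neat1 stood at -0.21, -2.04 and -2.16 in knockout replicates and at -0.98, -0.72 and -2.22 in wild-type replicates. Replicate 3 was the lowest for Pvt1, Malat1 and Neat1 in both genotypes, and for H19 in the wild type only.

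Whether the shift between fractions differed between the genotypes was tested as the knockout minus wild-type difference of polysomal minus total RNA. None of the 4 RNAs passed by limma, which called 0.265% of the 12474 genes tested and gave 2604 genes at an unadjusted p under 0.05. edgeR and DESeq2 called none of the 4 either. H19 had the largest value of the 4, 2.08 ± 0.87 (log2, SE, 95% interval 0.18 to 3.98, unadjusted p = 0.0349, adjusted p = 0.211). With polysomal replicate 3 alone for each genotype the value was 3.08. Pvt1 had -0.70 ± 0.46 (-1.71 to 0.30, adjusted p = 0.377), Neat1 -0.17 ± 0.75 (adjusted p = 0.909) and Malat1 -0.12 ± 1.05 (adjusted p = 0.957).

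Between the genotypes Pvt1 was higher in knockout cells in both fractions. All libraries were put on one scale by the median of ratios of the recovered reads for this comparison, and fitted together. Pvt1 averaged 329 ± 104 in knockout polysomal RNA and 144 ± 54.9 in wild-type polysomal RNA (SD, n = 3 each), and 146 ± 26.4 in knockout total RNA (n = 2) and 37.4 ± 8.16 in wild-type total RNA (n = 3). The log2 difference of knockout minus wild type was 1.21 ± 0.32 in polysomal RNA (SE, 95% interval 0.51 to 1.91, adjusted p = 0.0386 by limma) and 1.95 ± 0.36 in total RNA (1.17 to 2.73, adjusted p = 0.00657).

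The knockout-minus-wild-type test called 8.32% of the 12465 genes in polysomal RNA, 4.82% as higher and 3.5% as lower, and 10.5% in total RNA, 4.71% as higher and 5.78% as lower, with Pvt1 the single one of the 4 RNAs called in each. The ribosomal-RNA-like models were also taken out, with libraries scaled to their remaining reads in place of the common scale. In polysomal RNA 693 genes were then higher and 321 lower, against 601 and 436 without these changes. The polysomal Pvt1 call was lost with the length trend removed (adjusted p = 0.0836), with the polysomal libraries alone (0.150) and in 9 of 11 fits that left out 1 library. It was kept without wild-type polysomal replicate 2 and without knockout polysomal replicate 3. The total call was lost without knockout total replicate 2 (1.76, adjusted p = 0.106).

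Malat1 and Neat1 lay higher and H19 lower in knockout than in wild-type total RNA without overlap, a pattern that 31.2% of genes showed as higher and 33.2% as lower. On the common scale Malat1 averaged 352 ± 10.6 in knockout total RNA (SD, n = 2) and 146 ± 29.3 in wild-type total RNA (n = 3). Neat1 averaged 208 ± 38.5 in knockout total RNA and 88.1 ± 15.8 in wild-type total RNA. H19 averaged 488 ± 29.6 in knockout total RNA and 1055 ± 80.9 in wild-type total RNA.

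In the fit over all 11 libraries, whose spread includes that of the polysomal ones, these 3 did not pass: the log2 differences were 1.29 ± 0.79 for Malat1 (SE, adjusted p = 0.294 by limma), 1.23 ± 0.57 for Neat1 (0.173) and -1.11 ± 0.66 for H19 (0.285). In a fit of the 5 total libraries alone, chosen after the data were seen, all 4 passed: Malat1 1.31 (adjusted p = 0.00249), Neat1 1.25 (0.00322), Pvt1 1.97 (0.001001) and H19 -1.09 (0.00179). That fit called 4406 genes, against 1308 of the 12465 tested (10.5%) over all libraries, so calls in it were also common among all genes. Summed levels of the listed myoblast and myotube markers also differed between the genotypes in total RNA, as given above. By limma over all 11 libraries, 2 of 9 myotube markers tested were lower in knockout total RNA and 0 higher. In knockout polysomal RNA 3 of the 9 were higher and 0 lower. The part of these markers in the differences of the 4 RNAs was not tested.

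In polysomal RNA of the knockout against the wild type, the differences were 1.13 ± 0.70 for Malat1 (log2, SE, adjusted p = 0.375 by limma), 1.02 ± 0.51 for Neat1 (0.254) and 0.93 ± 0.59 for H19 (0.391). The groups of these 3 overlapped; Pvt1 was the single one without overlap, shared by 12.6% of genes as higher and 11% as lower. Leaving out 1 library gave a call to Malat1 without knockout polysomal replicate 3 (2.16, adjusted p = 0.0196) and to H19 without wild-type polysomal replicate 2 (1.61, adjusted p = 0.0483). With replicate 3 alone the values were 1.24 for Neat1, 1.92 for H19 and -0.29 for Malat1. On the common scale Pvt1 had 218 in knockout and 90.0 in wild-type polysomal replicate 3.

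**Figure D4:**
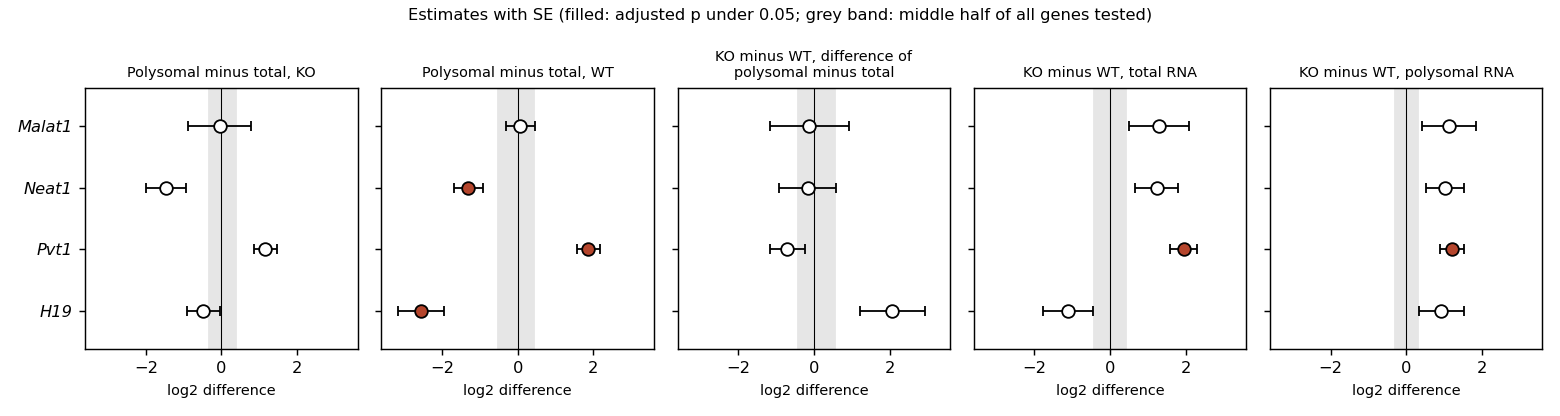
Log2 differences with SE of the 4 RNAs: polysomal minus total RNA of knockout and of wild-type cells, the difference between these, then the genotypes compared within each fraction; the grey band is the interquartile range of all genes tested. Filled points passed an adjusted p of 0.05 (limma): Pvt1, Neat1 and H19 in wild-type fractions, and Pvt1 in both comparisons of genotypes.

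Per kilobase of deposited length, H19 was the highest of the 4 in every group and Neat1 the lowest. Group means per kilobase were 131 for H19, 55.4 for Malat1, 44.6 for Pvt1 and 3.67 for Neat1 in knockout polysomal RNA, and 159, 37.8, 19.4 and 8.40 for the same RNAs in knockout total RNA. They were 83.3 for H19, 20.5 for Pvt1, 19.5 for Malat1 and 1.68 for Neat1 in wild-type polysomal RNA. In wild-type total RNA they were 375 for H19, 17.03 for Malat1, 5.40 for Pvt1 and 3.88 for Neat1. Neighbours in this order overlapped for Malat1 and Pvt1 in both polysomal groups, for Pvt1 and Neat1 in wild-type total RNA, for H19 and Malat1 in knockout polysomal RNA and for H19 and Pvt1 in wild-type polysomal RNA. The Neat1 level is an average over the long and the short isoform.

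Other RNAs known mainly from the nucleus also went both ways. Of 23 listed, 8 were tested in wild-type cells, where Ftx, an RNA of the X-inactivation centre, rose by 1.06, and Xist, which coats the inactive X chromosome, fell by 2.68 and Mir17hg, a microRNA host, fell by 1.16 (median -0.30). Mir17hg averaged only 0.577 in polysomal and 2.60 in total wild-type RNA, so its difference depends on the 1 added before the log2. Jpx, Trp53cor1 and Dleu2, which enter the median, averaged lower still in wild-type total RNA. In knockout cells 6 of the 23 were tested and Xist fell by 2.22 (median 0.80). Of 13 listed cytoplasmic long non-coding RNAs, 7 were tested. In wild-type cells 3 rose, led by 1500012F01Rik (Zfas1, a snoRNA host) at 2.91 and Snhg6, also a snoRNA host, at 1.61, while Dnm3os, a microRNA host, fell by 2.41 (median 0.50). In knockout cells none rose and Dnm3os fell by 3.05 (median -0.27).

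Coding neighbours of the 8 named RNAs, those without rows included, did not share one direction. In wild-type cells 1 of 9 tested, Myc, was higher and 3 were lower: Igf2, the fetal growth factor of the H19 domain, by 1.63, Ltbp3, a latent TGF-beta binding protein near Malat1, by 1.41, and Tnnt3, fast skeletal troponin T, by 3.22. In knockout cells 1 of 8 tested passed, and Ltbp3 fell by 1.64. Frmd8, next to Neat1, had a difference of -0.22 in knockout cells and -0.28 in wild-type cells and did not pass. Cd81, Tssc4 and Nap1l4, of the imprinted cluster around Kcnq1ot1, stood at -0.16, -0.59 and -0.18 in knockout cells and at -0.49, 0.66 and 0.14 in wild-type cells, and none passed. Between the genotypes, Slc22a18, a transporter gene of the same cluster, rose by 1.45 in knockout total RNA and Igf2 fell by 1.42 (adjusted p = 0.0267 by limma). Both were low. On the common scale Slc22a18 averaged 3.02 in knockout and 0.509 in wild-type total RNA, and Igf2 averaged 1.18 and 4.94. Differences at such levels depend on the 1 added before the log2.

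Imprinted coding genes were lower or did not pass in polysomal RNA. Of 21 listed, 15 were tested in wild-type cells and 7 fell (median -0.74), led by Peg3, a zinc-finger gene, at -3.33 and Dcn, the matrix proteoglycan decorin, at -3.20. In knockout cells 3 of 12 fell (median -0.28), led by Dcn at -2.19 and Igf2r, the receptor that clears Igf2, at -1.80. Between the genotypes 3 of 13 rose and 2 fell in knockout polysomal RNA, and 0 rose and 2 fell in knockout total RNA.

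The genes whose levels were most like each RNA over the 11 libraries were picked by Pearson r among 9399 genes, and libraries of 1 group and 1 preparation share what sets them apart. Malat1 was most like mt-Nd6 (r = 0.867), mt-Rnr1 (0.794) and Ip6k2 (0.785). Neat1 was most like Tubb2a (0.963), Stoml1 (0.957) and Hps6 (0.943). Pvt1 was most like 3830406C13Rik (0.967), Hist1h1c (0.961) and Orai2 (0.961), and H19 most like Fbxl2 (0.922), Tubb2b (0.892) and Nol3 (0.890). The closest genes of Malat1 include a mitochondrial mRNA and a mitochondrial ribosomal RNA, and its likeness to them was weaker than that of the other 3 to their closest genes.

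In the authors' deposited table, the log2 fold change between fractions (polysomal over total) in knockout cells was 0.55 for Malat1 (FDR 0.687), -1.196 for Neat1 (0.116), 1.21 for Pvt1 (0.0199) and -0.29 for H19 (0.755). In wild-type cells the authors' deposited table gives 0.19 for Malat1 (FDR 0.730), -1.21 for Neat1 (0.00674), 1.92 for Pvt1 (3.06e-07) and -2.17 for H19 (0.000220). The authors' deposited table thus passes Pvt1 at 0.05 in knockout cells, where limma did not.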

How the data were processed

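The authors deposited 1 table per genotype whose main columns hold a signal (normalised read counts, scaled by the authors within each table), besides gene length, the authors' log2 fold change and FDR, an adjusted p-value. mm10, HTSeq, STAR and edgeR were used per the submitters' processing notes; versions and roles are not given in the sources used here. All values (100%) were whole reads times 1 factor per library within 0.001 reads, and edgeR on these recovered reads called 2874 genes between wild-type and 303 between knockout fractions. A value of 0 allows up to 3 reads, or 0.0989 to 0.257; floors and intervals of ratios cover counting error only.

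limma 3.58.1 (trend) in R 4.3.3 was run on log2(value + 1), for genes at 1 or more in at least 3 libraries, with Benjamini-Hochberg adjustment over all genes; edgeR 4.0.16 and DESeq2 1.42.0 were alternatives, and leaving out libraries, another pseudocount, scaling and filter, removal of ribosomal-RNA-like models or a length trend were also tried. Removal of the ribosomal-RNA-like models also changed the scaling, to the total of the remaining reads. The procedure was also run on simulated counts with the same dispersion for all genes and no shift in ribosomal-RNA-like reads between libraries. That setting is simpler than these data, so it does not vouch for the results. The design had assumed plain CPM; its test was kept for these values. Replicates differed by far more than sampling noise. Columns of the knockout match the labels by group, not by number, so their replicate numbers name table columns only. Of 13768 gene IDs, 13648 matched the RefSeq name table. The members and lists were chosen with earlier results of these data known, and 1 ribosomal-RNA-like model, Gm26924, was added to its list after values were seen. Each of the 4 RNAs was named, the lists' genes by the 2 largest passing changes in each direction, every listed coding neighbour but 1 that is not reported here, and the 3 genes of closest pattern with a mean of at least 10.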

Additional observations from a re-analysis of the deposited data

How the results depend on the processing

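Of 348 alternative values of the 4 RNAs, 285 kept direction and side of the threshold, 27 lost and 17 gained a call and 19 changed sign. All changes of sign were of values that did not pass, and the cause was not tested. In knockout fractions Malat1 changed to 0.54 with edgeR, 0.52 with DESeq2 and 0.14 with the ribosomal-RNA-like models removed, and ran from -0.79 to 0.98 when 1 library was left out, positive without knockout polysomal replicate 3. In wild-type fractions it changed to -0.55 with polysomal replicate 3 alone and ran from -0.35 to 0.39 when 1 library was left out, negative without total replicate 3 or polysomal replicate 1. For the difference between genotypes it changed to 0.33 with edgeR, 0.34 with DESeq2 and 0.018 with those models removed, and ran from -0.87 to 0.90 when 1 library was left out; Neat1 there changed to 0.058 with polysomal replicate 3 alone and ran from -0.80 to 0.18. In polysomal RNA of the genotypes Malat1 changed to -0.29 with replicate 3 alone.

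With DESeq2 the genes called were 1288 between knockout fractions (333 by limma), 4369 between wild-type fractions (2806), 943 for the difference between genotypes (33), 2464 in total RNA (1308) and 1795 in polysomal RNA (1037); 1 of the 4 RNAs passed in knockout fractions. With the length trend removed, 1460 genes were called between knockout fractions and 126 for the difference between genotypes, and none of the 4 RNAs passed between the genotypes in polysomal RNA (0, against 1). With polysomal replicate 3 alone, chosen after the data were seen, 5210 genes were called between wild-type fractions, 4475 in total RNA and 674 in polysomal RNA, and 2 of the 4 RNAs passed in knockout fractions, 1 for the difference, 4 in total RNA and 2 in polysomal RNA; with 1 polysomal library per genotype these counts take their spread from total libraries, so those on the polysomal fraction support no call. With libraries of the compared fraction alone, 4406 genes and 4 RNAs passed in total RNA and 311 genes and 0 RNAs in polysomal RNA. Leaving out 1 library gave 5 to 1622 genes and 0 to 3 RNAs in knockout fractions, 461 to 5777 genes and 0 to 3 RNAs in wild-type fractions, 0 to 355 genes and 0 RNAs for the difference, 260 to 2979 genes and 0 to 1 RNAs in total RNA, and 419 to 1649 genes and 0 to 2 RNAs in polysomal RNA. Where an arm kept 1 library, it was assumed to vary like the others. The ribosomal-RNA-like models were removed together with a change to scaling by remaining reads. The median of all genes was then 0.21 (0.04 without both changes) in knockout fractions and 0.21 (0.09) for the difference. The part of each change was not tested.

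Wild-type fractions share replicate numbers, but same-numbered deviations correlated at 0.21, -0.22 and -0.07 and no polysomal library correlated best with its own number. With the replicate block 1946 genes and 3 RNAs were called there. No paired analysis was possible in the knockout because its columns carry no label numbers. Only 2 knockout total columns limit the error there.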
